A study of Homo sapiens with 78 samples.

Results

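The messenger RNAs of 5 serine/threonine kinases were followed in A549 cells: the PIM kinases PIM1, PIM2 and PIM3, and the polo-like kinases PLK2 and PLK3. The 5 genes were picked by symbol from the 19652 genes of the deposited expression table, and all 5 passed the filter that left 13327 genes for testing. A549 is an established epithelial line from a human lung carcinoma. Confluent cultures were kept overnight without serum, were moved to fresh serum-free medium and were left unstimulated (NS), or received interleukin-1β (IL-1β, 1 ng/ml), the inhaled glucocorticoid budesonide (300 nM, in DMSO at no more than 0.1%), or both. RNA was taken at 1, 2, 6, 12 and 24 h. The 78 libraries of this 1 line formed 20 groups, 18 of them with 4 libraries; NS had only 3 at 6 h, as had the cotreatment (IL-1β-plus-budesonide) at 12 h. Values are normalized TPM, transcript abundances scaled to transcript length, so that levels of different genes can be compared.

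PIM kinases lack a regulatory domain and are active once made, so that their activity is governed largely by how much mRNA and protein is present. PIM1 is a classic target of cytokine receptors acting through JAK kinases and STAT transcription factors, and all 3 PIM kinases phosphorylate proteins that control survival, translation and the cell cycle, such as BAD and the inhibitor p27. PLK2 and PLK3 carry the polo-box domain of the mitotic kinase PLK1, but they are immediate-early genes that growth factors, cytokines and stress induce, and PLK2 is also a target of p53. IL-1β acts mainly through NF-κB and MAP kinases, and budesonide through the glucocorticoid receptor.

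In GENCODE version 44 on GRCh38, the genes lie on 5 chromosomes. PIM1 spans chr6:37170152-37175428 on the plus strand, PIM2 chrX:48913182-48919024 on the minus strand and PIM3 chr22:49960768-49964072 on the plus strand, each with 6 exons in the canonical transcript. PLK2 spans chr5:58453982-58460139 on the minus strand with 14 exons, and PLK3 chr1:44800377-44805990 on the plus strand with 15 exons. Stretches of 31 bases shared in the same orientation with transcripts of other genes made up 0.165% of those of PIM1 and 4.71% of those of PLK3. They made up 0 of those of PIM2, PIM3 and PLK2, so the paralogs could be told apart. The opposite orientation was searched only among the 5 members. MIR6821 overlaps PIM3 on the same strand. DYNLT4 overlaps PLK3 on the other strand, and whether quantification used the strand is not given in the sources used here.

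The sequences before the start sites of PLK2 and PIM3 are shown because these 2 genes had the opposite response to budesonide. They come from RefSeq on GRCh38.p14, in which all 5 members had an entry, and run 5′ to 3′ along the gene's strand, ending before the first base that GENCODE assigns to a transcript of the gene. Capitals mark matches to a GC box (GGGCGG or its complement), to the core of the cyclic AMP response element (TGACG) and to the p53 half-site consensus.
PLK2, chr5:58460140-58460336, minus strand: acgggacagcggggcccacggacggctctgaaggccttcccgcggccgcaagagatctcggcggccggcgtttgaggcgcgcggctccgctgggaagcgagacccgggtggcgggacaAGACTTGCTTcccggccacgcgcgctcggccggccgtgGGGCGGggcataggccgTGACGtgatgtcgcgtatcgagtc
PIM3, chr22:49960522-49960767, plus strand: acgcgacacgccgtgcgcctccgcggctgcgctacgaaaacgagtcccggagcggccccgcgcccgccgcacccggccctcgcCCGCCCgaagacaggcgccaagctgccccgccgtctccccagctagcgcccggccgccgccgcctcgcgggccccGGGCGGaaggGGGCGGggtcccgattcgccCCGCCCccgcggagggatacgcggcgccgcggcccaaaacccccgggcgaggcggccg

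Over the 250 bases before each RefSeq start site, both strands were searched. The TGACG core stood 77 bases before the RefSeq start of PLK2 and the p53 half-site 132 bases before it. GENCODE assigns the last 53 bases of the PLK2 window and the last 4 of the PIM3 window to transcripts. The printed sequences leave these bases out, and with them the PLK2 GC box that begins 52 bases before the start. Of 35116 promoters of the same length, 21.2% held the core and 5.57% a p53 half-site. GC boxes, which 42.6% of promoters held, numbered 4 in PIM1, 4 in PIM3, 2 in PLK2 and 1 each in PIM2 and PLK3. None of the 5 windows held the κB consensus (5.21% of promoters), the glucocorticoid response element (GNACA and its complement TGTNC, 3 bases apart, 0.327%), the STAT motif TTCNNNGAA (6.57%), the AP-1 motif TGANTCA (6.57%), the full TGACGTCA (1.65%, which contains the core), a CArG box (1.16%) or TATAAA (10.7%). These matches describe letters within 250 bases only.

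The sums of the libraries lay between 812680 and 1009500 TPM, mitochondrially encoded genes took 11.8% to 17.2% of them, and the files give no read count per library, for which the study states 1 approximate depth. By the distance of a library to the other libraries of its group, 7 libraries stood apart (0.419 to 0.677, against at most 0.368 in the other 71). They were all 3 IL-1β-plus-budesonide libraries at 12 h, replicate 4 of the same treatment at 1 h, replicate 2 of IL-1β at 24 h, and replicate 3 at 2 h and replicate 2 at 12 h of budesonide. Over the tested genes, 30 of the 78 libraries were nearest to another group, 19 of them to the same treatment at another time. No cotreatment library at 12 h was nearest to its own group, and replicate 2 was nearest to budesonide at 12 h. Epithelial markers summed to between 2184 and 15270 TPM, with the lowest library in the IL-1β group (NS from 3698 to 6831 TPM) and the highest in the budesonide group, whereas 6 of 6 endothelial, 5 of 6 fibroblast and 5 of 6 immune markers had medians under 1 TPM. The immune sum reached 42.8 TPM with IL-1β against at most 13.6 TPM in NS, and its 1 marker above that level, CD68, had a median of 9.12 TPM and a maximum of 41.7 TPM. Their part in the results was not tested.

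Without stimulation PLK2 was the most abundant member, with a mean of 92.5 TPM over the 19 NS libraries, higher than 91.0% of the genes tested. The mean was 14.6 TPM for PIM1, 9.82 TPM for PIM3, 5.10 TPM for PLK3 and 4.86 TPM for PIM2. PLK2 also had the widest range over all 78 libraries, from 19.7 to 377 TPM, a ratio of 19.1. That ratio was 7.18 for PIM1, 4.97 for PLK3, 4.94 for PIM3 and 3.61 for PIM2. In culture time alone, comparing NS at 2, 6, 12 and 24 h with NS at 1 h in limma, 0 of 20 member and time pairs were called, where 0.186% of all such pairs were. A call needed a Benjamini-Hochberg adjusted p of at most 0.05 and an absolute log2 fold change of at least 1. Unadjusted p was under 0.05 in 4 of the 20 pairs, all of them PIM1, which went from 18.9 ± 1.6 TPM (SD, n = 4) at 1 h to 11.8 ± 1.1 TPM (n = 4) at 24 h (log2 fold change −0.66 ± 0.14 SE, adjusted p = 0.000845).

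**Figure D1:**
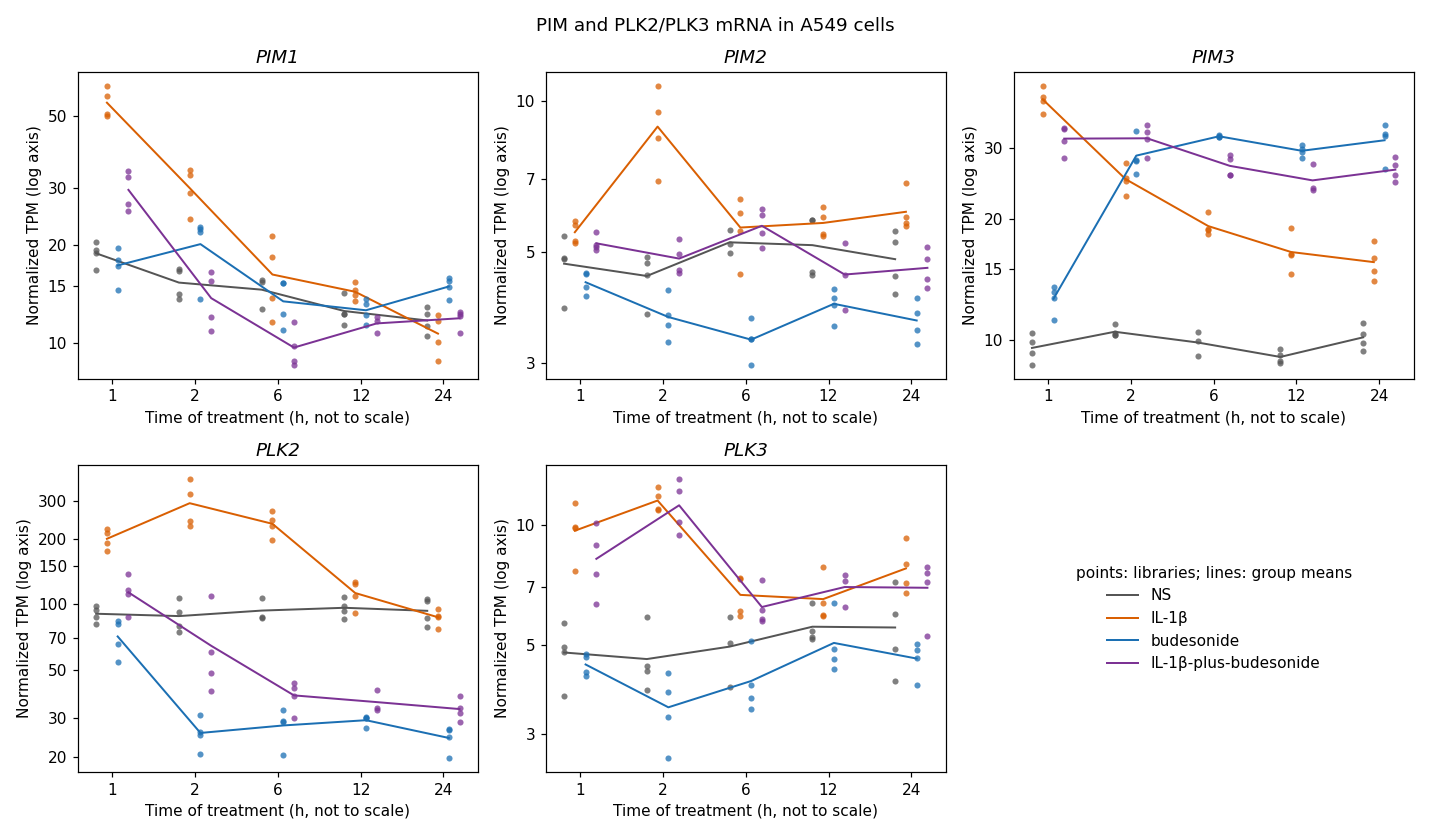
Normalized TPM (log axis) of the 5 genes in each of the 78 libraries by time of treatment, with 1 colour per treatment; points are libraries and lines join group means. PIM1 declines with time in NS, PIM3 lies above NS in every treated group, and PLK2 lies above NS with IL-1β up to 6 h and below it with budesonide from 2 h.

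The first comparison asked what IL-1β did to the 5 kinases. It raised 4 of them at 1 or more times: PIM3 at 1 and 2 h, PIM1 at 1 h, PLK2 from 1 to 6 h and PLK3 at 2 h. PIM2 was higher at 2 h but stayed under 2-fold. In all, 7 of 25 member and time pairs were called, all higher, where 5.83% of all gene and time pairs were called and 3.29% were called higher. In a culture's bulk RNA, more cells of a kind and more RNA per cell cannot be told apart.

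PIM1 was measured at 61.7, 57.3, 49.7 and 50.4 TPM in the 4 IL-1β libraries at 1 h and at 16.8, 20.5, 18.9 and 19.4 TPM in the NS libraries. The 2 groups did not overlap, and the rise was 2.85-fold (log2 1.51 ± 0.14, adjusted p = 7.28e-14), at a time when 1.02% of genes were called higher. At 2 h PIM1 was still higher, at 30.0 ± 4.5 against 15.4 ± 1.7 TPM (log2 0.93 ± 0.14, adjusted p = 1.54e-07), just under the minimum fold for a call. From 6 h the 2 groups overlapped, with log2 differences of 0.12 at 6 h, 0.19 at 12 h and −0.13 at 24 h.

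PIM3 had the largest change of the 5 members at 1 h and still differed from NS at 24 h. The IL-1β libraries at 1 h held 39.2, 40.1, 42.9 and 36.4 TPM, against 9.27, 8.68, 10.4 and 9.86 TPM in NS. That is a 3.99-fold rise (log2 2.00 ± 0.08, adjusted p = 6.88e-32). The log2 difference was 1.22 ± 0.08 at 2 h and was also called. From 6 h to 24 h it went from 0.93 through 0.83 to 0.59 ± 0.08 (adjusted p = 2.61e-09 for the last), past the adjusted p but not the minimum fold. At every time the lowest IL-1β library lay above the highest NS library.

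PIM2, the least abundant member in NS, was at 10.7, 9.50, 8.42 and 6.93 TPM with IL-1β at 2 h and at 4.76, 4.88, 4.50 and 3.75 TPM in NS. All 4 IL-1β libraries exceeded all NS libraries, and the log2 difference of 0.91 ± 0.10 (adjusted p = 5.65e-11) stayed under the minimum of 1. With IL-1β replicate 4 left out it was 1.02, past the minimum. At 1 h, when PIM1 and PIM3 were at their highest, the PIM2 difference was 0.20 ± 0.10 (adjusted p = 0.606).

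PLK2 was highest with IL-1β at 2 h, as were PIM2 and PLK3, whereas PIM1 and PIM3 were highest at 1 h. It reached 200 ± 21 TPM with IL-1β at 1 h against 90.6 ± 7.4 TPM in NS (log2 1.14 ± 0.17, adjusted p = 1.36e-06). At 2 h the IL-1β libraries held 377, 320, 241 and 229 TPM and the NS libraries 107, 92.1, 79.5 and 75.0 TPM. The groups were far apart although the IL-1β libraries spread widely, and the rise was 3.25-fold (log2 1.70 ± 0.17, adjusted p = 1.98e-12). PLK2 stayed 2.49-fold higher at 6 h (log2 1.32 ± 0.19, adjusted p = 2.37e-08). At 12 and 24 h the groups overlapped, with log2 differences of 0.22 ± 0.17 and −0.09 ± 0.17.

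PLK3, a stress-induced relative of PLK2, was likewise highest with IL-1β at 2 h, at a much lower level. At 1 h it stood at 9.66 ± 1.5 TPM with IL-1β and 4.80 ± 0.81 TPM in NS (log2 0.94 ± 0.15, adjusted p = 2.00e-06), under the minimum fold; without NS replicate 3 the difference was 1.02 and without IL-1β replicate 2 it was 1.04. The IL-1β libraries at 2 h were at 10.9, 11.8, 10.9 and 12.4 TPM and the NS libraries at 4.32, 4.43, 3.86 and 5.87 TPM, a 2.36-fold rise with no overlap (log2 1.24 ± 0.15, adjusted p = 2.47e-10). Smaller differences passed the adjusted p at 6 h (0.40 ± 0.16) and at 24 h (0.47 ± 0.15).

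The second comparison asked what budesonide did alone. It raised PIM3 and lowered PLK2 from 2 h to 24 h, and no change in PIM1, PIM2 or PLK3 was called. That made 8 of 25 pairs, 4 higher and 4 lower, where 4.1% of all pairs were called, 2.17% higher and 1.92% lower.

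Budesonide acted on PIM3 with a delay and then held it. At 1 h the libraries held 12.7, 11.2, 13.5 and 13.2 TPM, above the NS range of 8.68 to 10.4 TPM, for a log2 difference of 0.39 ± 0.08 (adjusted p = 0.00128). At 6 h they held 31.9, 32.2, 32.4 and 31.9 TPM, the tightest group of the series for this gene, against 9.97, 9.12 and 10.5 TPM in NS. The rise was 2.65-fold at 2 h, 3.15-fold at 6 h (log2 1.66 ± 0.08, adjusted p = 1.26e-25), 3.14-fold at 12 h and 2.98-fold at 24 h. When PIM3 was called at 2 h, 0.683% of genes were called higher.

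PLK2 moved the other way. The budesonide libraries at 1 h (54.2 to 83.9 TPM) still overlapped NS (81.7 to 98.4 TPM), with a log2 difference of −0.36 ± 0.17 that did not pass the adjusted p. One hour later they held 30.9, 26.1, 25.2 and 20.5 TPM, all below the lowest NS library at 75.0 TPM. The level was 29.4% of NS (log2 −1.76 ± 0.17, adjusted p = 2.69e-12), when 0.315% of genes were called lower. It was 29.7% of NS at 6 h, 30.9% at 12 h and 26.5% at 24 h (log2 −1.92 ± 0.17, adjusted p = 8.08e-15), with no overlap between the groups at any of these times.

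For the other members budesonide gave smaller differences. PIM2 was lower than NS at 6 h (3.33 ± 0.29 against 5.22 ± 0.29 TPM, log2 −0.58 ± 0.11, adjusted p = 4.00e-05), at 12 h (−0.34 ± 0.10) and at 24 h (−0.36 ± 0.10), each past the adjusted p and without overlap. PIM1 differed past the adjusted p only at 24 h, by 0.34 ± 0.14 (adjusted p = 0.0442). Its difference at 2 h was as large, at 0.36 ± 0.14 (adjusted p = 0.196). Leaving out single libraries put that value between 0.29 and 0.53, so a late-only change cannot be read from these values. PLK3 differences ran from −0.36 ± 0.15 at 2 h to −0.08 ± 0.15 at 1 h and none passed the adjusted p at a single time, whereas the average over the 5 times was −0.21 ± 0.07 (adjusted p = 0.00845).

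**Figure D2:**
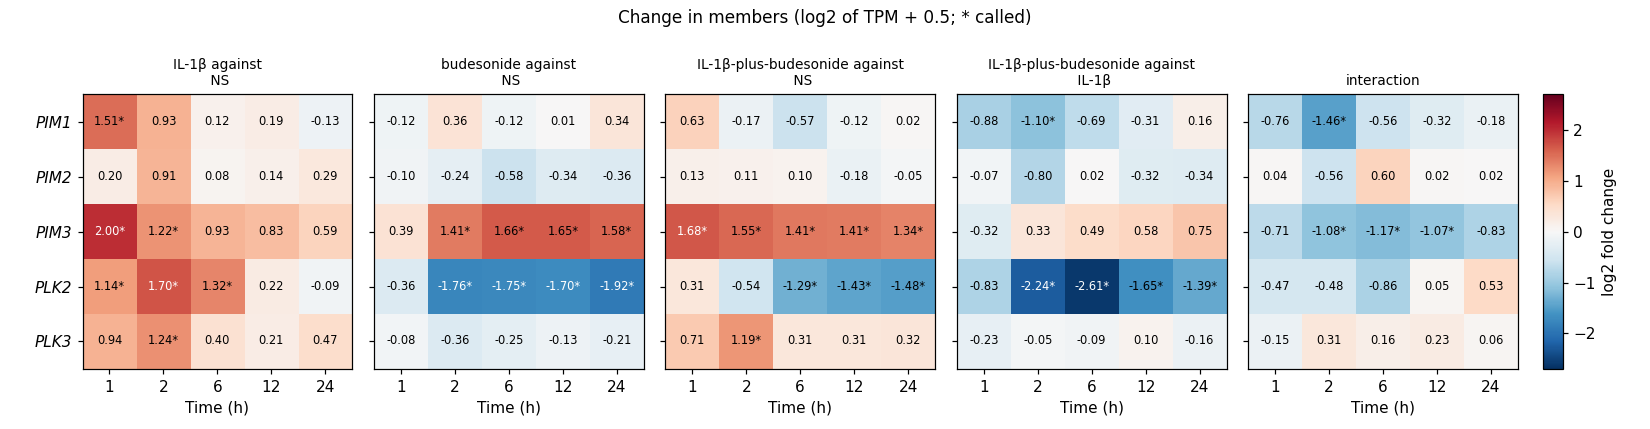
Log2 fold changes (log2 of TPM plus 0.5) of the 5 genes at each time in 5 contrasts, 1 panel per contrast; the interaction takes both single changes away from the cotreatment change, and asterisks mark calls. PIM3 is red against NS in all 3 treatments, PLK2 turns from red with IL-1β to blue with budesonide, and the PLK3 row is close to 0 where IL-1β-plus-budesonide is set against IL-1β.

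The third set of comparisons took the cotreatment against NS and against each single treatment. Against NS 9 of 25 pairs were called, 6 higher and 3 lower, where 5.69% of all pairs were. PIM3 was higher at all 5 times (2.54-fold to 3.20-fold) and PLK3 at 2 h, and PLK2 was lower at 6, 12 and 24 h. Against IL-1β 5 pairs were called, all lower (4 for PLK2 and 1 for PIM1), where 4.05% of all pairs were called and 2.03% were called lower. Against budesonide 3 pairs were called, all higher, where 2.69% of all pairs were called: PIM3 at 1 h, and PLK2 and PLK3 at 2 h. These comparisons share libraries, so their values are given side by side.

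With budesonide added, PLK2 was far lower than with IL-1β alone. Cotreated libraries at 2 h held 109, 60.6, 40.0 and 48.6 TPM, against 229 to 377 TPM with IL-1β. Even the highest, replicate 1, lay below every IL-1β library, and the level was 21.1% of that with IL-1β (log2 −2.24 ± 0.17, adjusted p = 2.13e-16). At 6 h the cotreated libraries held 41.4, 43.4, 38.0 and 29.9 TPM and the IL-1β libraries 243, 269, 228 and 198 TPM, a 6.09-fold difference (log2 −2.61 ± 0.17, adjusted p = 5.24e-20) and the largest of any member in any contrast between treatments. At 12 and 24 h, when IL-1β alone no longer differed from NS past the threshold, the cotreatment was at 32.0% and 38.2% of IL-1β.

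Set against budesonide alone, cotreated PLK2 was 2.33-fold higher at 2 h (log2 1.22 ± 0.17, adjusted p = 7.54e-08). Without cotreatment replicate 1 at 2 h this value was 0.94 and no longer reached the minimum fold. At 6 h the difference was 0.46 ± 0.17 (adjusted p = 0.0376) and at 24 h 0.44 ± 0.17 (adjusted p = 0.101).

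PIM1 was lower with the cotreatment than with IL-1β as well. At 1 h cotreated libraries held 33.7, 32.5, 26.7 and 25.5 TPM, between the ranges of NS (16.8 to 20.5 TPM) and IL-1β (49.7 to 61.7 TPM). They were at 54.3% of IL-1β (log2 −0.88 ± 0.14, adjusted p = 1.05e-05). At 2 h they held 16.5, 15.5, 10.9 and 12.1 TPM, which overlapped NS and was 46.6% of IL-1β (log2 −1.10 ± 0.14, adjusted p = 5.72e-09), a call where 0.548% of genes were called lower. At 6 h the cotreatment was also under NS, at 9.71 ± 1.4 against 14.6 ± 1.7 TPM (log2 −0.57 ± 0.15, adjusted p = 0.00192), its lowest group mean of all 20.

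The 2 h rise of PIM2 was likewise reduced, since IL-1β gave 8.90 ± 1.6 TPM and the cotreatment 4.84 ± 0.35 TPM (log2 −0.80 ± 0.10, adjusted p = 1.05e-08), and against NS no PIM2 value of the cotreatment passed the adjusted p. At 6 h, however, cotreated cells had more PIM2 than budesonide-treated cells (5.63 ± 0.45 against 3.33 ± 0.29 TPM, log2 0.68 ± 0.10, adjusted p = 1.99e-07).

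For PLK3 no difference between the cotreatment and IL-1β was called. Cotreated libraries at 2 h held 13.0, 10.2, 9.42 and 12.1 TPM, overlapping the IL-1β libraries, with a log2 difference of −0.05 ± 0.15 and a 95% interval of −0.34 to 0.24. At the other times it lay between −0.23 and 0.10, and 0 of the 5 times passed an unadjusted p of 0.05 in limma. Against NS the cotreatment gave a 2.29-fold rise at 2 h (log2 1.19 ± 0.15, adjusted p = 9.02e-10). Against budesonide it gave a 2.93-fold rise (log2 1.55 ± 0.15, adjusted p = 1.17e-13).

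PIM3 in cotreated cells was nearer to whichever single treatment gave more, but its mean lay below that treatment at 1, 6, 12 and 24 h. It was 31.7 ± 2.5 TPM at both 1 and 2 h and 27.1 ± 1.7 TPM at 6 h. At 12 h it was 24.9 ± 2.1 TPM (n = 3), and at 24 h 26.5 ± 1.7 TPM. At 1 h this was 2.44-fold above budesonide (log2 1.29 ± 0.08, adjusted p = 6.42e-22) and below IL-1β by 0.32 ± 0.08 (adjusted p = 0.0146). At 2 h it was above budesonide by 0.14 ± 0.08 (adjusted p = 0.297). At 6 h it was at 84.6% of budesonide (log2 −0.24 ± 0.08, adjusted p = 0.0121), and at 12 h at 84.5% (log2 −0.24 ± 0.08, adjusted p = 0.0509). At 24 h it was above IL-1β by 0.75 ± 0.08 (adjusted p = 2.33e-12) and below budesonide, at 85.0% of it (log2 −0.23 ± 0.08, adjusted p = 0.0342).

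The interaction contrast asked whether the cotreatment change equalled the sum of the 2 single changes on the log2 scale. It was called in 4 of 25 pairs, all below the sum (PIM1 at 2 h and PIM3 at 2, 6 and 12 h), where 2.31% of all pairs were called and 1.19% below. For PIM3 the single changes summed to between 2.17 (at 24 h) and 2.63 (at 2 h), whereas the cotreatment changes lay between 1.34 and 1.68. The shortfall was largest at 6 h (−1.17 ± 0.11, adjusted p = 3.65e-12) and passed the adjusted p at all 5 times. On the TPM scale PIM3 fell short of the additive level by 10.3 to 14.3 TPM, with no value turning sign when any library was left out.

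PIM1 had an interaction of −1.46 ± 0.19 at 2 h (adjusted p = 2.32e-07), where the sum of 1.29 met a cotreatment change of −0.17. At 1 h the value was −0.76 ± 0.19 (adjusted p = 0.135). In TPM, PIM1 fell short of the additive level by 23.7 TPM at 1 h (SE 3.77) and by 21.0 TPM at 2 h (SE 3.51). For PIM2 the interaction passed the adjusted p in opposite directions, at −0.56 ± 0.14 at 2 h and 0.60 ± 0.15 at 6 h.

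For PLK2 the values at 1, 2 and 6 h lay below the sum on both scales, and the TPM scale was not tested. On the log2 scale its interaction was −0.48 ± 0.25 at 2 h (adjusted p = 0.886) and −0.86 ± 0.26 at 6 h (adjusted p = 0.0186), neither of them called. In TPM, the cotreatment fell short of the additive level by 164 TPM at 2 h (SE 38.8) and by 130.5 TPM at 6 h (SE 16.8), since the additive levels were 229 and 169 TPM. At 24 h both scales gave the opposite sign, with a log2 value of 0.53 ± 0.25 (adjusted p = 0.15) and a cotreatment level 14.9 TPM above the additive one (SE 7.98, 10.8 to 19.9 TPM when each library was left out), and the log2 value at 12 h was 0.05 ± 0.26 beside a shortfall of 10.1 TPM (SE 9.86). For PLK3 no interaction passed an unadjusted p of 0.05 in limma, with log2 values from −0.15 ± 0.21 to 0.31 ± 0.21.

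**Figure D3:**
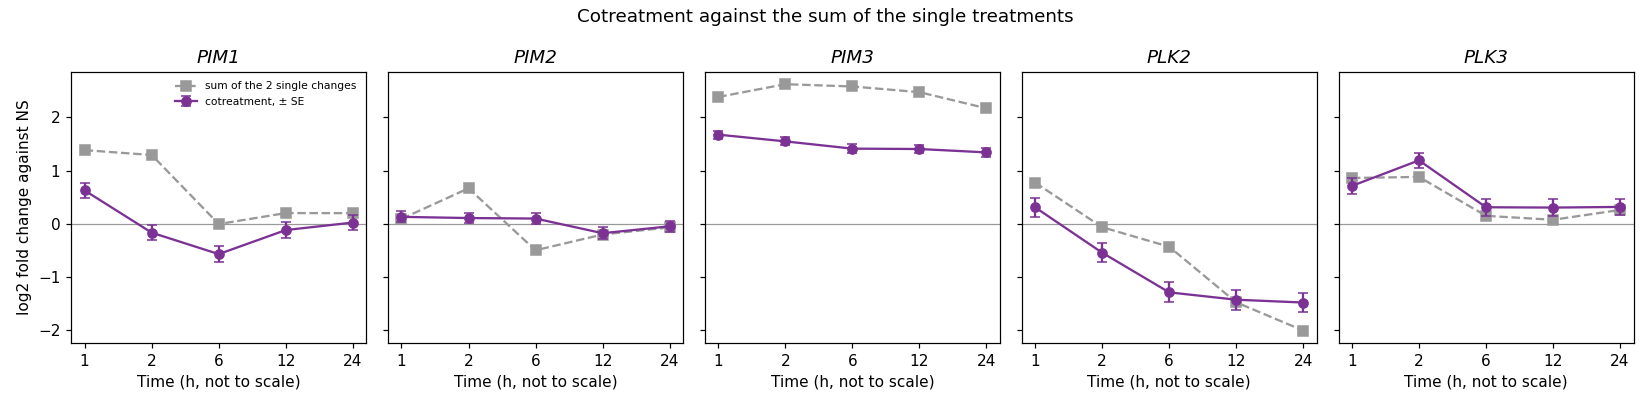
Log2 fold change against NS by time for each gene: the cotreatment (circles, bars ± SE) and the sum of the 2 single changes (squares, no error shown). PIM3 lies below its sum at all 5 times, PIM1 falls furthest below its sum at 2 h, and the PLK3 lines run close together.

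The course in time was tested as the response at 24 h minus the response at 1 h, each against NS of the same time. Of 15 such values 6 were called, 1 higher and 5 lower, where 8.59% of all were called. With IL-1β, PIM1 (−1.64 ± 0.19, adjusted p = 4.59e-10), PIM3 (−1.40 ± 0.11, adjusted p = 1.34e-16) and PLK2 (−1.23 ± 0.25, adjusted p = 8.70e-05) had smaller responses at 24 h. With budesonide, PIM3 had a larger response (1.19 ± 0.11, adjusted p = 3.56e-14) and PLK2 a more negative one (−1.55 ± 0.25, adjusted p = 5.60e-07). PLK2 with the cotreatment differed by −1.79 ± 0.25 (adjusted p = 1.73e-08).

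Ordered over all 20 groups, PIM1 was highest with IL-1β at 1 h (54.8 TPM) and lowest with the cotreatment at 6 h (9.71 TPM). PIM2 ran from 8.90 TPM (IL-1β, 2 h) to 3.33 TPM (budesonide, 6 h), and PIM3 from 39.6 TPM (IL-1β, 1 h) to 9.08 TPM (NS, 12 h). PLK2 ran from 292 TPM (IL-1β, 2 h) to 24.4 TPM (budesonide, 24 h), and PLK3 from 11.5 TPM (IL-1β, 2 h) to 3.50 TPM (budesonide, 2 h). Of the 19 pairs of neighbours in each order, the ranges of 19 overlapped for PLK3, 18 for PIM2 and PLK2, 17 for PIM1 and 15 for PIM3. Such overlaps were not counted for other genes, so these numbers only show how loosely each order is fixed. IL-1β at 1 h stood clear of the next group for PIM1 and PIM3, as did IL-1β at 2 h for PIM2.

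Among the members the group means of PIM2 and PLK2 had the highest correlation (Pearson r = 0.79 over the 20 groups) and PIM3 and PLK2 the lowest (−0.30), on the log2 scale. The 3 genes nearest to each member were ranked among 5431 genes whose group means spanned at least 1 on that scale. For PIM1 they were FOSB (r = 0.91), EGR3 (0.88) and EGR1 (0.86), which encode immediate-early transcription factors. Over all libraries the median levels of these genes were 0.310, 0.018 and 0.409 TPM, under the 0.5 TPM added before taking logs. For PIM2 they were NCOA7 (0.87), FOXC1 (0.86) and CTTNBP2NL (0.85).

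PIM3 was nearest to DDIT4, an inhibitor of mTORC1 signaling (r = 0.90), to CEBPD, a C/EBP transcription factor (0.88), and to FAM43A (0.87). Their log2 changes at 6 h were 0.94, 1.43 and 0.57 with IL-1β and 1.69, 1.70 and 2.28 with budesonide. PLK2 was nearest to LIF, a cytokine of the IL-6 family (0.94), to FOXC1, a forkhead transcription factor (0.92), and to TLR1, a Toll-like receptor (0.91). The log2 change of LIF at 2 h was 1.20 with IL-1β and −1.05 with budesonide. PLK3 was nearest to IRF1 (0.94), a transcription factor, and to NFKBIE (0.93) and NFKBIZ (0.93), which encode members of the IκB family. These r describe 20 points that share libraries.

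Genes of the surrounding pathways were taken from fixed lists, and each was counted where it was called at 1 or more times. Of all genes tested 7.53% were called higher and 8.8% lower with IL-1β, 4.87% and 6.36% with budesonide, and 7.64% and 7.92% with the cotreatment. Medians are log2 changes averaged over the 5 times, and those of all genes were −0.05 with IL-1β, −0.02 with budesonide and −0.05 with the cotreatment.

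Upstream of the PIM kinases, 20 of 22 JAK-STAT genes (IL-6 family ligands, their receptors, JAKs, STATs and SOCS inhibitors) were tested. With IL-1β 11 were called higher, 3 lower and 6 neither (median 0.46). The examples with the largest average change were STAT5A (2.55) and IL6 (3.58), whose median level was 0.138 TPM, so that its change depends on the pseudocount. With budesonide 6 were called higher, 1 lower (LIF) and 13 neither (median 0.25), led by SOCS1 (1.73), a feedback inhibitor of JAKs, and IL6R (1.38). The median level of SOCS1 was 0.677 TPM, so that its change also depends on the pseudocount. With the cotreatment 11 were called higher and 0 lower (median 0.53), led by STAT5A (2.60) and SOCS3 (1.33). JAK1, which is among the 6 with budesonide, was also called higher with the cotreatment.

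Downstream, the mRNAs of 16 known PIM substrates were mostly uncalled: 13 of 16 with IL-1β and 12 of 16 with each of the others, with medians of 0.04, 0.02 and 0.02. The examples were CXCR4, a chemokine receptor, higher with IL-1β (1.20), and FOXO3, a transcription factor, higher with budesonide (1.49). CXCR4 had a median level of 0.790 TPM, so that its change depends on the pseudocount. CDKN1A with IL-1β (0.61) was not called at any time. CDC25A, a cell cycle phosphatase, was called lower with budesonide, by −0.78 on average.

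The cell cycle relatives PLK1 and PLK4, kinases of mitosis and of centriole duplication, were called lower in all 3 treatments. Their log2 changes at 24 h were −1.81 and −1.70 with IL-1β, −2.77 and −2.47 with budesonide and −2.50 and −2.53 with the cotreatment. PLK5 did not pass the filter. Of 12 substrates of PLK2 or PLK3, 2 were called higher and 3 lower with IL-1β (median −0.10), led by JUN (1.73), an AP-1 subunit, and HIF1A (0.67), the hypoxia factor. With budesonide 0 were called higher and 6 lower (median −0.37), led by CDC25A (−0.78) and TOP2A (−0.58), a topoisomerase of dividing cells, whose change at 24 h was −2.65. With the cotreatment 1 was called higher and 5 lower (median −0.09), led by CDC25C (−0.67) and CDC25A (−0.63).

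Since PLK2 is a p53 target, 22 others were counted. With IL-1β 3 were called higher and 3 lower (median −0.12), led by TNFRSF10B, a death receptor (1.10), and BBC3, a proapoptotic BCL2 family member (1.03). With budesonide 4 were called higher and 0 lower (median −0.00), led by GADD45A (1.56), a stress gene, and TP53I3 (0.75). With the cotreatment 3 were called higher and 0 lower (median −0.04), led by GADD45A (1.46) and BTG2 (0.62).

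Immediate-early genes, the class in which PLK2 and PLK3 were first described, were counted as well. With IL-1β 17 of 21 were called higher and 2 lower (median 0.88), led by IER3 (2.39) and FOSB (1.74), whose median level was 0.310 TPM. With budesonide 5 were called higher and 8 lower (median 0.01), led by DUSP1, a MAP kinase phosphatase (2.71), and ZFP36, an RNA-binding protein that destabilizes mRNA (2.25). With the cotreatment 16 were called higher and 5 lower, 3 of them at different times in both directions (median 0.43), again led by DUSP1 (2.80) and ZFP36 (2.43). Some genes stand in more than 1 list, such as CDC25A, CDC25C and JUN.

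The genes that check the treatments moved with the labels. CXCL8, an NF-κB-driven chemokine, changed by 8.20 on the log2 scale, averaged over times, with IL-1β, and TNFAIP3 by 5.39. TSC22D3 and FKBP5, which the glucocorticoid receptor induces, changed by 3.87 and 3.07 with budesonide. With IL-1β 3 of the 6 check genes were called higher and 1 lower, with budesonide 5 higher and 1 lower, and with the cotreatment 6 higher and 0 lower.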

How the data were processed

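The authors prepared stranded poly(A) libraries, quantified them with kallisto on the GRCh38 transcriptome and normalized them with sleuth. Versions are not given in the sources used here. The deposited gene table holds these normalized TPM, treated here as a signal and not rescaled. It holds 1 library that the labels do not list, which was not used. A second table holds the authors' own log2 fold changes, adjusted p-values and directions and was not used. Labels state 4 independent experiments (3 at 12 h) without tying libraries to them, so p-values may in part measure technical spread.

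Of 19652 genes, 13327 reached 1 TPM in 3 or more libraries and were kept. Group means (1 per treatment and time) were fitted to log2(TPM + 0.5), a scale that understates changes of low genes, over all 78 libraries in limma 3.58.1 (R 4.3.3), with moderated, trended standard errors and 58 residual degrees of freedom. Tests were two-sided, with Benjamini-Hochberg adjustment over all genes of a contrast. A call needed an adjusted p of at most 0.05 and an absolute log2 fold change of at least 1. The fit was tested on simulated data. Values after ± are SE for log2 differences and SD for TPM, and n is 4 unless given. The study states 1 approximate depth for all samples and the files hold no read counts, so no counting error is given.

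Members and gene lists were chosen with earlier results of these data known. The text names the members, the 3 genes with the highest Pearson r to each over the 20 log2 group means, and, per list and treatment, the 2 genes with the largest absolute time-averaged change. Other genes named within lists were picked after their values were seen. Libraries with the same number deviated together: 111 of 114 same-number pairs within a time had r over 0.1 (median 0.27, lowest −0.12), against a median of −0.09 between different numbers. This held for every pair in 27 of 30 comparisons of 2 treatments. Alternatives covered pseudocounts, filters, scalings, the replicate block, fits without some libraries or of the groups compared alone, and no trend. Sequences were read from RefSeq promoter windows and GENCODE version 44 on GRCh38.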

Additional observations from a re-analysis of the deposited data

Results flagged for a closer look

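Among 90 groups of 4 values (5 genes in 18 groups), the lowest library stood far from the others in 2, where chance alone marks about 1 in 20. PIM1 in budesonide replicate 3 at 2 h was 13.7 TPM, against 21.9 to 22.7 TPM in the other 3; this is also one of the 7 libraries that stood apart over all genes. PLK2 in budesonide replicate 1 at 12 h was 27.2 TPM, against 29.9 to 30.3 TPM.

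The response against NS differed between 24 h and 1 h, by the limma contrast of the difference, in 6 cases. With IL-1β the difference was −1.64 for PIM1, −1.40 for PIM3 and −1.23 for PLK2 on the log2 scale. With budesonide it was 1.19 for PIM3 and −1.55 for PLK2. For PLK2 with IL-1β-plus-budesonide it was −1.79.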

How the results depend on the processing

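All counts of calls, from 0 (NS over time) to 9 (cotreatment against NS), kept the value of the report under each pseudocount, filter, scaling, trend and replicate block setting, except as named here. Under the replicate block the counts were 7, 8, 9, 5, 3, 4, 0 and 6, in the order IL-1β, budesonide and cotreatment against NS, cotreatment against IL-1β and against budesonide, interaction, NS over time, and 24 h against 1 h; these equal the counts without it, and pairing by number changed no call. Leaving out each library in turn gave 7 to 9 calls for IL-1β against NS and 2 to 3 for the cotreatment against budesonide, and the other counts did not move. The value below the minimum fold was PLK2 at 2 h without cotreatment replicate 1 (0.94), and those above it were PIM1 (1.03) and PIM2 (1.02) without IL-1β replicate 4 at 2 h and PLK3 at 1 h (1.02 and 1.04). Quantile normalization put the time-averaged interaction of PIM3 at −1.01, from −0.97. Scaling every library to the same sum shifted the median of all genes by −0.116 to 0.108 and a member by at most 0.129. PIM2 was not tested under the minimum mean of 5 TPM. The rule for libraries that stand apart removed every cotreatment library at 12 h, so 40 of 215 member values could not be fitted and 4 calls against IL-1β, 7 against NS and 3 of the interaction were left; leaving out the 5 farthest, chosen after seeing the data, kept every call. Signs of values past no threshold were not followed. The part of depth in the precision was not tested, since the files hold no counts. PIM2 and PLK3 lay at a few TPM. For IL-1β against NS at 1 h, the SE was 0.10 for PIM2 and 0.15 for PLK3. It was 0.08 for PIM3, 0.14 for PIM1 and 0.17 for PLK2, the most abundant member.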
